A study of Papio anubis with 12 samples.

Results

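TRPM and TRPV genes encode cation channels of the transient receptor potential (TRP) family. They were followed in the precentral gyrus, the primary motor cortex, of 12 baboon neonates. Each member was taken as every probe set of the array whose annotation gives exactly 1 gene symbol, equal to TRPM1, TRPM2, TRPM3, TRPM4, TRPM7, TRPV1, TRPV2, TRPV4 or TRPV6. This gave 24 of 54613 probe sets, for 8 of the 9 genes, with 4 for TRPM1, 8 for TRPM3, 5 for TRPM7, 2 each for TRPV2 and TRPV6 and 1 each for TRPM2, TRPM4 and TRPV4. TRPV1, the capsaicin receptor, had none, since both of its probe sets also carry a second symbol. TRPM1 and TRPV2 were chosen because their values over the formulas were known, so all their probe sets are described here with no test.

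The animals, Papio anubis born around 182 days of gestation, were fed for 12 weeks on formula C with no docosahexaenoic acid (DHA) or arachidonic acid (ARA), formula L with 0.33% DHA and 0.67% ARA, or formula L3 with 1.00% DHA and 0.67% ARA (n = 4 per formula). L and L3 differed in DHA at equal ARA, and no group received DHA without ARA. Total RNA of each animal was hybridized to 1 Affymetrix array with probes of human sequence. Animals were 83 to 87 days old at necropsy, and males numbered 2 with formula C, 1 with formula L and 0 with formula L3.

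TRP channels are built of subunits that cross the membrane repeatedly and assemble around a central pore. Melastatin channels (TRPM) range from calcium-permeable to monovalent-selective members, and TRPM6 and TRPM7 carry an enzyme domain on the channel. Vanilloid channels (TRPV) include sensors of heat, osmotic stress and lipids, and a pair of calcium-selective epithelial channels. Phosphoinositides of the membrane set the activity of many of them, and metabolites of ARA, such as epoxides and lipoxygenase products, open TRPV4 and TRPV1. In brain, members are found in neurons, glia, vessels and choroid plexus, often at low transcript levels.

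Values are MAS5 signals as deposited, an intensity scaled so that all arrays share a trimmed mean. Log2 differences come from log2(signal + 16) after quantile normalization, an addition that makes differences of low signals smaller, each given with its limma standard error (SE). The median signal of all probe sets was 108.8 to 167.5 in C arrays, 114.9 to 171.9 in L arrays and 128.9 to 174 in L3 arrays. The 24 member probe sets ran from a signal of 2.5 to 700.1, and 7 of them lay below their array's median on all 12 arrays and 0 above it on all 12. Fewer transcripts per cell and fewer cells of a type cannot be told apart in such tissue RNA. Markers of neurons were bright, with 8 of 8 genes above the median of all probe sets, as were 4 of 4 deep-layer cortex genes. The summed signal of 8 microglia and macrophage genes was 1639 to 4190.4 with formula C, 2409 to 6338 with formula L and 2058 to 3907 with formula L3. The mean log2 signal of the spike-in controls, RNA added in fixed amounts, was 11.1 to 12.7 with formula C, 10.7 to 13.0 with formula L and 10.8 to 13.7 with formula L3. The log2 ratio of the 3' to the 5' ACTB control, a sign of RNA quality, was −0.03 to 3.59 with formula C, −0.15 to 3.45 with formula L and 0.17 to 6.18 with formula L3, with the highest in L3 replicate 1.

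TRPM1, the founding melastatin, is the channel of retinal ON bipolar cells that opens when glutamate falls, and is also made by melanocytes. Its probe set 237069_s_at, the one in the study's list, had signals of 17.7, 27.8, 12.7 and 67.3 with formula C, 25.7, 66.5, 18.6 and 63.8 with formula L and 146.9, 69.2, 37.6 and 76.1 with formula L3. On all 12 arrays this probe set lay below the array median. As deposited, 3 L3 arrays lay above all 4 C arrays, the L arrays fell into a low and a high pair, and C replicate 4 was as high as the high L pair. After quantile normalization L3 replicate 2 lay below C replicate 4, at 6.36 against 6.49 in log2. The mean signal was 31.4 ± 24.8 with formula C, 43.65 ± 25.0 with formula L and 82.45 ± 46.1 with formula L3 (SD, n = 4 per formula). On the log2 scale the difference was 0.42 (SE 0.51) for L over C and 1.02 (SE 0.51) for L3 over C, and 0.64 (SE 0.58) for L3 over C over the 9 arrays with an ACTB log2 ratio of 3 or less. The L over C difference was 0.77 without C replicate 4, 0.18 without L replicate 2 and 0.20 without L replicate 4.

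Of the 24 member probe sets, TRPM1 206479_at stood farthest from 0 in both comparisons with C. Its signals were 8.1, 21, 33.7 and 14.7 with formula C, 136.9, 86.6, 82.2 and 36.6 with formula L and 92.4, 213, 330.3 and 83.6 with formula L3. All 4 L arrays and all 4 L3 arrays lay above all 4 C arrays, while L and L3 overlapped. In log2 the difference was 1.51 (SE 0.52) for L over C, 2.21 (SE 0.52) for L3 over C and 0.69 (SE 0.52) for L3 over L. Over all alternative settings and arrays left out, it ran from 1.10 to 2.19 for L over C and from 1.89 to 2.98 for L3 over C. Of all probe sets, 0.930% had every L array above every C array and 1.14% every L3 array above every C array, and nothing is read from the TRPM1 values against these shares, since the gene was chosen on its pattern.

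In the remaining pair of TRPM1 probe sets the 3 formulas overlapped. The one with the highest mean of all TRPM1 probe sets, 214410_at, had signals of 19.3, 34.4, 121.3 and 183.6 with formula C, 155.3, 177.3, 132.8 and 104.7 with formula L and 17.4, 214.7, 263.9 and 90.7 with formula L3. L arrays were closely grouped, and as deposited the C and L3 arrays each spanned a wider range that enclosed them. Log2 differences were 0.94 (SE 0.72) for L over C and 0.41 (SE 0.72) for L3 over C. With 1 array left out they ran from 0.49 (without C replicate 1) to 1.39 (without C replicate 4) for L over C, and from −0.035 (without C replicate 1) to 1.05 (without L3 replicate 1) for L3 over C. In 237070_at, with signals from 2.5 to 47.9, the differences were 0.14 (SE 0.44) for L over C and −0.18 (SE 0.44) for L3 over C. As a description over the 12 arrays, the correlation of the log2 values between pairs of TRPM1 probe sets was −0.21 to 0.54 over 6 pairs, with 0.25 between 206479_at and 237069_s_at. The marker list of pigment cells (5 of 6 genes measured, 4 above the median of all probe sets) had a summed signal of 997.9 to 1739 with formula C, 1016 to 1335 with formula L and 898.2 to 1565 with formula L3, and its part in the TRPM1 values was not tested.

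**Figure D1:**
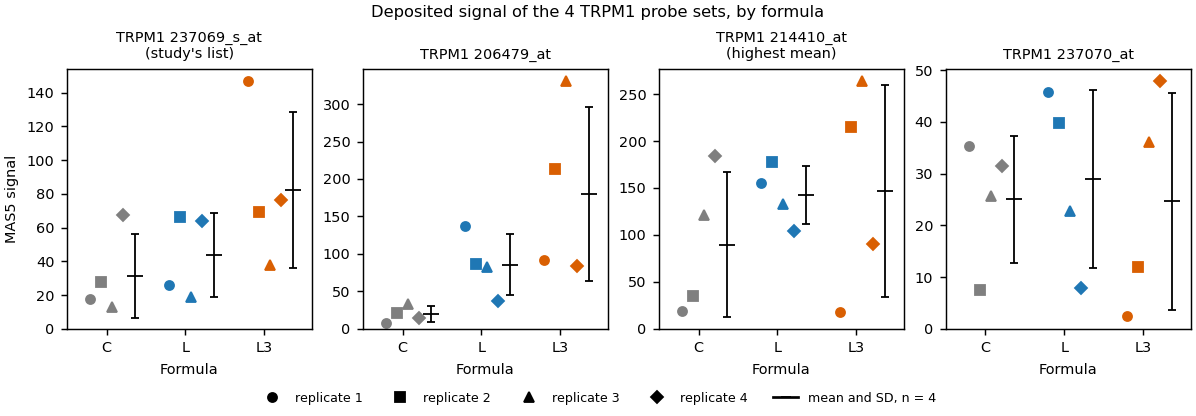
Deposited MAS5 signal (y axis, linear) of the 4 TRPM1 probe sets on each of the 12 arrays by formula (x axis), with marker shapes for the replicate and a bar for the mean and SD of 4 arrays. In 206479_at the L and L3 arrays lie above the highest C array at 33.7, while in 214410_at and 237070_at the 3 formulas overlap.

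TRPV2, a channel found in macrophages, neurons and heart that responds to strong heat and stretch in rodents, showed another order. Its probe set 222855_s_at, also in the study's list, had signals of 59.3, 60, 50.9 and 272.4 with formula C, 245.9, 223.3, 132.2 and 215.4 with formula L and 64.5, 58.7, 72.7 and 63.8 with formula L3. The 12 values form a low set of 50.9 to 72.7, holding every L3 array and C replicates 1 to 3, and a high set of 132.2 to 272.4, holding every L array and C replicate 4. The mean was 111 ± 108 with formula C, 204.2 ± 49.7 with formula L and 64.9 ± 5.79 with formula L3 (SD, n = 4 per formula). The log2 difference was 1.11 (SE 0.53) for L over C, −0.41 (SE 0.53) for L3 over C and −1.53 (SE 0.53) for L3 over L. Leaving out C replicate 4 gave 1.64 (SE 0.49) for L over C and 0.11 (SE 0.49) for L3 over C, and the sign also turned in females only, at 0.09. All 4 L3 arrays lay below all 4 L arrays, as did those of 1.14% of all probe sets, and this is again a description.

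The other TRPV2 probe set, 219282_s_at, did not split in this way. Its signals were 217.5, 155.9, 207.3 and 198.6 with formula C, 314.2, 165.8, 220.1 and 254.6 with formula L and 45.8, 214.7, 39.4 and 275.1 with formula L3. L3 replicates 1 and 3 were far below every other array, and as deposited L3 replicates 2 and 4 lay within the range of L. On the log2 scale the difference was 0.28 (SE 0.54) for L over C, −0.88 (SE 0.54) for L3 over C and −1.15 (SE 0.54) for L3 over L. For L3 over C it was −0.52 without L3 replicate 1, −0.50 without L3 replicate 3, −1.34 without L3 replicate 4, −0.49 over the 9 arrays with an ACTB log2 ratio of 3 or less and −0.58 with the spike-in covariate, with the same sign in each. The correlation of the 2 probe sets over the 12 arrays was 0.44, as a description. The microglia and macrophage list had mean log2 values of 7.65 with formula C, 8.25 with formula L and 7.64 with formula L3. Of its 8 measured genes 7 had a log2 difference above 0 for L over C and 3 for L3 over C, where they ran from −0.92 to 0.89, and its part in the TRPV2 values was not tested.

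**Figure D2:**
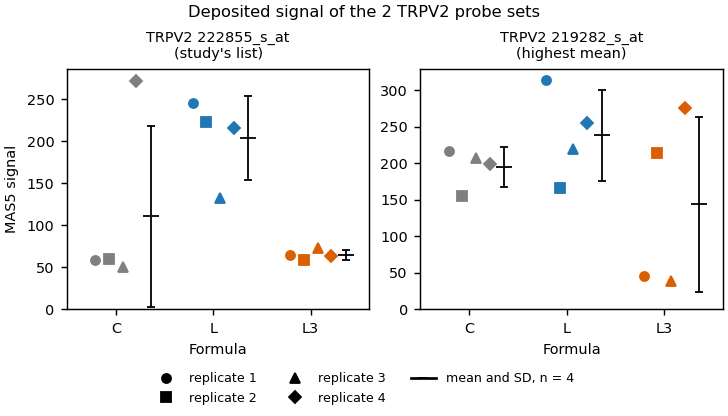
Deposited MAS5 signal (y axis, linear) of the 2 TRPV2 probe sets on each of the 12 arrays by formula (x axis), with marker shapes for the replicate and a bar for the mean and SD of 4 arrays. In 222855_s_at every L3 array lies at 58.7 to 72.7 and every L array at 132.2 or more, with C replicate 4 at 272.4; in 219282_s_at L3 replicates 1 and 3 lie below the rest.

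By a rule set out with earlier results known, the bright single-symbol probe sets most alike in pattern to 237069_s_at of TRPM1 over the 12 arrays were those of FLT1, a receptor of vascular endothelial growth factors (r = 0.85), PCM1, a centriolar satellite protein (r = 0.83), and SFRP1, a secreted Wnt antagonist (r = 0.83). For 222855_s_at of TRPV2 they were HACD2, a dehydratase of fatty acid elongation (r = 0.87), GABRB2, a GABA-A receptor subunit (r = 0.85), and SELENOI, an ethanolamine phosphotransferase (r = 0.85). They are the 3 highest of 22069 probe sets searched for each gene, and all share the same arrays. GABRB2 had signals of 61.3 to 516 with formula C, 133.1 to 696.6 with formula L and 78 to 147.9 with formula L3, so its L and L3 ranges overlapped where those of TRPV2 did not.

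The remaining members were tested. None of the pairwise comparisons or the F test among the 3 formulas placed any of their 18 probe sets under an adjusted p of 0.05 in limma (0 of 18 each, against 0% of all probe sets). Before adjustment, a limma p under 0.05 was reached by 0 for L over C (2.42% of all probe sets), by 1, which was higher, for L3 over C (4.26%, with 2.22% higher) and by 0 for L3 over L (5.40%). The F test gave 0 at that level, against 3.67% of all. By sign alone, 9 were higher and 9 lower for L over C (49.1% of all probe sets were higher), 9 and 9 for L3 over C (49.9%) and 13 and 5 for L3 over L (50.5%), and the median differences were 0.07, 0.01 and 0.12 in log2. The medians over all probe sets were −0.0089, −0.00072 and 0.0065. These probe sets had a median SE of 0.55 in log2. Exact permutation tests (two-sided, 4 arrays against 4, smallest possible p 0.0286) reached a p under 0.05 for 0 of them in each of the 3 comparisons, against 2.10% of all probe sets for L over C, 2.21% for L3 over C and 2.66% for L3 over L.

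**Figure D3:**
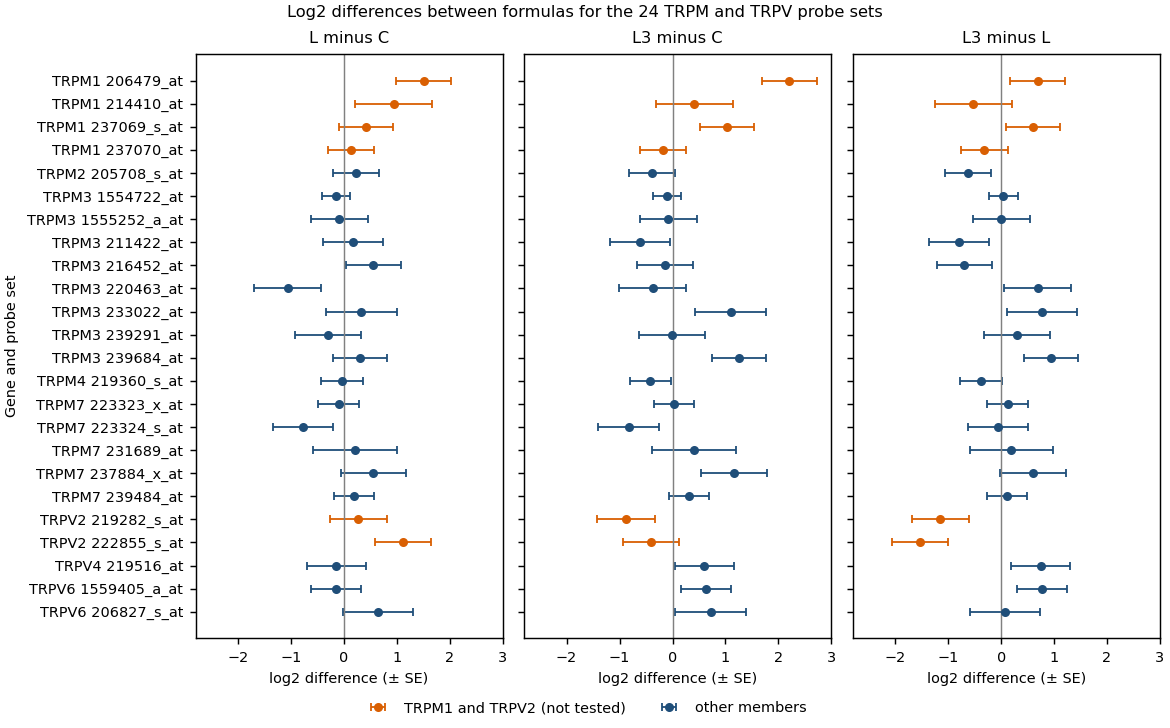
Log2 differences L minus C, L3 minus C and L3 minus L (x axes, bars for the SE from limma) of the 24 TRPM and TRPV probe sets (y axis), with TRPM1 and TRPV2, which were not tested, in a separate colour. TRPM1 206479_at lies farthest right, at 1.51 and 2.21 against C, TRPV2 222855_s_at farthest left in L3 minus L, at −1.53.

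TRPM3, which opens to the neurosteroid pregnenolone sulfate and to heat, gave the probe set with the smallest p. In 239684_at the signals were 284.4, 47.1, 117.8 and 154.1 with formula C, 241.4, 82.4, 130.3 and 253.6 with formula L and 272.5, 457.5, 448.9 and 248.3 with formula L3. The L3 arrays lay above 3 of the 4 C arrays, and C replicate 1 fell between them. The log2 difference for L3 over C was 1.25 (SE 0.51), with a p of 0.0259 and an adjusted p of 0.999 from limma and an exact permutation p of 0.0857. For L over C it was 0.30 (SE 0.51, limma p 0.559), and for L3 over L 0.95 (SE 0.51, limma p 0.0817). The L3 over C difference was 1.44 (limma p 0.0285) with sex as a covariate, 1.05 (limma p 0.0517) with age as a covariate and 1.90 in females only (limma p 0.00679). It was 0.76 (limma p 0.104) without C replicate 2, 1.11 (limma p 0.0676) without L3 replicate 2 and 1.14 (limma p 0.0634) without L3 replicate 3.

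The other TRPM3 probe sets differed among themselves. The brightest by mean, 216452_at, had signals of 238.7, 103.7, 153.5 and 375.4 with formula C, 277.6, 228.9, 331.6 and 371.9 with formula L and 241.1, 53.7, 272.9 and 335.9 with formula L3, with C and L3 covering almost the same range. In log2 the difference was 0.56 (SE 0.52, limma p 0.301) for L over C and −0.14 (SE 0.52, limma p 0.791) for L3 over C. For 233022_at the signals were 106, 23, 28 and 32.3 with formula C, 165.3, 75.9, 20.9 and 18.8 with formula L and 341.9, 128.1, 128.3 and 23 with formula L3, and the log2 difference was 1.10 (SE 0.67, limma p 0.119) for L3 over C. In all, 3 L3 arrays lay above every C array and L3 replicate 4 among the lowest, and without that array the difference was 1.62 (limma p 0.0264, adjusted p 0.582). On the 6 arrays with the higher spike-in signal 233022_at ranged from 23 to 341.9, and on the other 6 from 18.8 to 75.9, and the part of this in the difference was not tested. For 220463_at the log2 difference was −1.06 (SE 0.63, limma p 0.113) for L over C and −0.37 (SE 0.63, limma p 0.564) for L3 over C. Over the 8 TRPM3 probe sets, the log2 difference was above 0 in 4 for L over C and in 2 for L3 over C, with medians of 0.05 and −0.09. Pairs of them had correlations from −0.72 to 0.57 over the 12 arrays, 14 of 28 above 0, which is a description of probe sets that share arrays and gene. TRPM3 is rich in choroid plexus, whose marker TTR had signals of 139.5, 524.5, 47.1 and 45.8 with formula C, 66, 20.7, 37.2 and 21.1 with formula L and 88.8, 1282, 1001 and 49.8 with formula L3. The TTR signal was highest in L3 replicates 2 and 3 and next highest in C replicate 2. TRPM3 239684_at was highest in the same L3 arrays and lowest in C replicate 2. TRPM3 220463_at was highest in these arrays, at 475.2 in C replicate 2, 429.2 in L3 replicate 2 and 329.1 in L3 replicate 3. TRPM3 216452_at was lowest in L3 replicate 2 and C replicate 2, at 53.7 and 103.7. The choroid plexus list, TTR included (6 of 6 genes measured, 2 above the median of all probe sets), had a summed signal of 1278 to 2019 with formula C, 1192 to 1589 with formula L and 1506 to 3168 with formula L3. Of these 6 genes, 3 were higher by sign for L over C, where TTR was lower, at −1.48 in log2. For L3 over C 5 were higher, with differences from −0.20 to 1.19, the highest that of TTR. The part of the list in the TRPM3 values was not tested.

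TRPM2, a calcium-permeable channel opened by ADP-ribose under oxidative stress, had signals of 372.8, 273.7, 149.3 and 350.9 with formula C, 533.3, 206.7, 281.9 and 285.9 with formula L and 322.3, 342.6, 96.5 and 215.7 with formula L3. The 3 ranges overlapped widely, with L replicate 1 highest and L3 replicate 3 lowest. Log2 differences were 0.23 (SE 0.43, limma p 0.610) for L over C and −0.39 (SE 0.43, limma p 0.375) for L3 over C, and 0.0083 for L3 over C without L3 replicate 3.

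TRPM4, a calcium-activated channel that passes monovalent cations, was dim on every array. Its signals were 36, 21.3, 23.8 and 74.4 with formula C, 68.6, 24.9, 15.5 and 33.5 with formula L and 19.1, 17.8, 25.4 and 36.7 with formula L3, all below the array medians. The log2 difference was −0.04 (SE 0.40, limma p 0.924) for L over C and −0.42 (SE 0.40, limma p 0.308) for L3 over C. In females only the L3 over C difference was 0.0064.

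TRPM7, a channel joined to a protein kinase that carries magnesium and calcium into most cells, had 5 probe sets with log2 differences of −0.78 to 0.56 for L over C and −0.83 to 1.16 for L3 over C. The brightest by mean, 231689_at, had signals of 143.8, 534.4, 119.5 and 49.7 with formula C, 700.1, 66.2, 287.1 and 50.6 with formula L and 288.7, 385.8, 427.4 and 50.5 with formula L3. Replicate 4 of every formula lay near 50, and the highest array of all was L replicate 1. On the log2 scale the difference was 0.21 (SE 0.79, limma p 0.792) for L over C and 0.40 (SE 0.79, limma p 0.615) for L3 over C. On the 6 arrays with the higher spike-in signal (2 of C, 1 of L and 3 of L3), 231689_at ranged from 143.8 to 700.1, and on the other 6 from 49.7 to 287.1. With the spike-in signal as a covariate, the L3 over C difference was −0.39.

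The remaining TRPM7 probe sets moved otherwise from array to array. For 223324_s_at the signals were 114.2, 260.3, 139.1 and 125.5 with formula C, 57.9, 89, 80.5 and 98.3 with formula L and 125.9, 108.3, 16.9 and 169.9 with formula L3. As deposited, all 4 L arrays lay below all 4 C arrays. After quantile normalization the groups overlapped, and the log2 difference for L over C was −0.78 (SE 0.57, limma p 0.191, exact permutation p 0.0857). With no further normalization, the exact permutation p for L over C was 0.0286, the smallest that 4 against 4 arrays can give, at a log2 difference of −0.80, and 1.57% of all probe sets reached that p in that setting. For 237884_x_at the signals were 20.2, 21.5, 119.6 and 79.4 with formula C, 163.3, 67.4, 121.8 and 21.2 with formula L and 168.1, 145, 220 and 80.6 with formula L3, with a log2 difference of 1.16 (SE 0.62, limma p 0.0784, exact permutation p 0.2) for L3 over C. As deposited, 3 L3 arrays of this probe set lay above every C array. After quantile normalization L3 replicates 1 and 2 lay below C replicate 3, at 7.36 and 7.17 against 7.41 in log2. Without C replicate 3 the difference was 1.61 (limma p 0.0201), and with no further normalization it was 1.32 (limma p 0.0499). Of the 24 member probe sets the dimmer 223323_x_at and 239484_at varied least, with a standard deviation within formulas of 0.21 and 0.31 in log2 against a median of 0.75 over the members, and had L3 over C differences of 0.03 (SE 0.38) and 0.30 (SE 0.38).

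**Figure D4:**
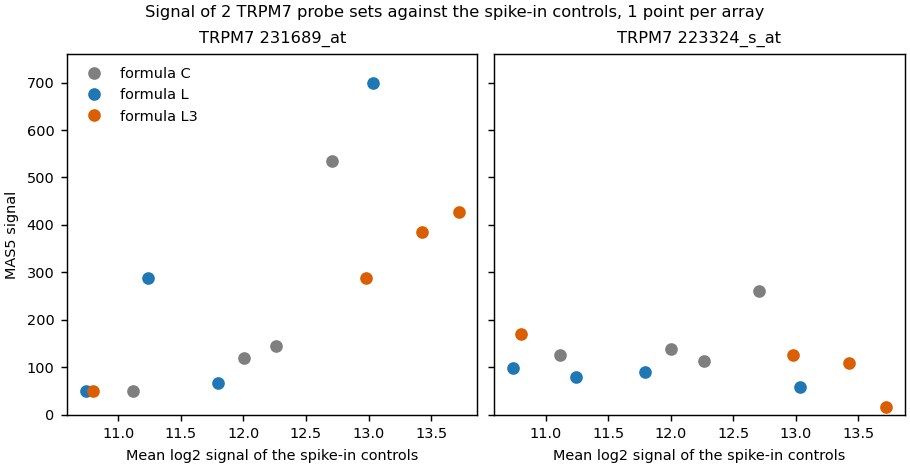
Deposited MAS5 signal (y axis, linear) of TRPM7 probe sets 231689_at and 223324_s_at against the mean log2 signal of the spike-in controls (x axis), 1 point per array coloured by formula. The signals of 231689_at above 300 lie on arrays with high spike-in signal, up to 700.1, while 223324_s_at stays between 16.9 and 260.3.

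TRPV4, which opens to osmotic swelling, warmth and epoxides of ARA, had signals of 48.4, 69.1, 34.9 and 45.1 with formula C, 62.8, 36.4, 42.8 and 25.6 with formula L and 17, 63.6, 228.9 and 160.8 with formula L3. L3 replicates 3 and 4 lay above every other array, and L3 replicate 1 was the lowest of the 12. In log2 the difference was −0.14 (SE 0.56, limma p 0.802) for L over C and 0.60 (SE 0.56, limma p 0.295, exact permutation p 0.314) for L3 over C. L3 replicate 1, which also had the highest ACTB ratio, decided whether the unadjusted p passed 0.05, since without it the L3 over C difference was 1.17 (limma p 0.0302, adjusted p 0.989). Without L3 replicate 3 the difference was 0.24, and without L3 replicate 4 it was 0.28. The choroid plexus marker TTR was high in L3 replicates 2 and 3 and low in L3 replicate 4. TRPV4, also rich in that tissue, was high in L3 replicates 3 and 4. TTR is 1 of the 6 genes of the choroid plexus list, of which 3 were higher by sign for L over C and 5 for L3 over C. The part of that tissue in the TRPV4 values was not tested.

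TRPV6, a calcium-selective channel of absorbing epithelia, had a pair of probe sets. For 1559405_a_at the signals were 264.9, 96, 127 and 147.8 with formula C, 306.2, 116.2, 139 and 54.4 with formula L and 297.2, 202.9, 396.8 and 197.8 with formula L3. The L3 arrays lay above 3 of the 4 C arrays and 3 of the 4 L arrays. Log2 differences were −0.14 (SE 0.47, limma p 0.766) for L over C, 0.63 (SE 0.47, limma p 0.196, exact permutation p 0.143) for L3 over C and 0.78 (SE 0.47, limma p 0.118) for L3 over L. For 206827_s_at the signals were 124.1, 72.4, 36.4 and 50.2 with formula C, 461, 43.8, 48.9 and 96.6 with formula L and 205.6, 315.8, 67.9 and 52 with formula L3. L replicate 1 and L3 replicates 1 and 2 lay above every C array, and the log2 difference was 0.64 (SE 0.66, limma p 0.347) for L over C and 0.72 (SE 0.66, limma p 0.295) for L3 over C.

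**Figure D5:**
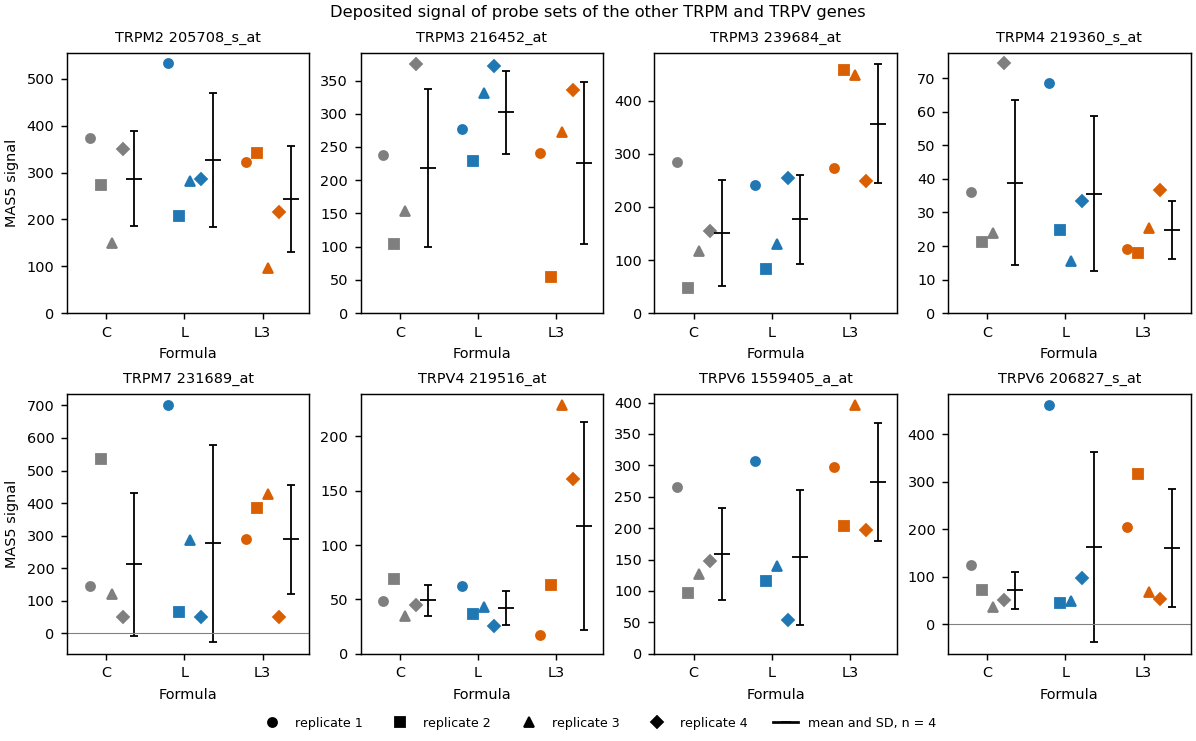
Deposited MAS5 signal (y axis, linear) by formula (x axis) of 8 probe sets of TRPM2, TRPM3, TRPM4, TRPM7, TRPV4 and TRPV6 on each of the 12 arrays, with marker shapes for the replicate and a bar for the mean and SD of 4 arrays, which reaches below 0 where 1 array dominates. In TRPM3 239684_at the L3 arrays lie at 248.3 or more, and TRPV4 is high only in L3 replicates 3 and 4, at 228.9 and 160.8.

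Across the members the spread between animals of 1 formula was close to that of all probe sets. The median standard deviation within formulas was 0.75 in log2 for the 24 probe sets and 0.72 for all probe sets, from 0.21 for TRPM7 223323_x_at to 1.35 for TRPM7 231689_at. Of the 24, 3 differed by 2-fold or more for L over C, 5 for L3 over C and 2 for L3 over L, against 4.87%, 7.20% and 8.81% of all probe sets. TRPM1 and TRPV2 are among those counted, so the counts are a description.

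Genes that work beside these channels were read from 6 lists holding 64 genes, of which 56 had a probe set, using the probe set with the highest mean. With a limma p under 0.05 before adjustment 1 gene was higher and 1 lower for L over C, 0 and 2 for L3 over C, and 3 and 5 for L3 over L, while 0 passed an adjusted p of 0.05. These are 3.57%, 3.57% and 14.3% of the 56, where all probe sets gave 2.42% (1.15% higher, 1.27% lower), 4.26% (2.22% and 2.04%) and 5.40% (2.96% and 2.44%). The median log2 difference was −0.05 for L over C, −0.12 for L3 over C and −0.14 for L3 over L.

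Of 16 measured genes among the other TRP channels, TRPC5, a channel of cortical neurons and growth cones, had a signal of 10.3 to 33.5 with formula C, 33.2 to 119.1 with formula L and 9.6 to 21.9 with formula L3. With formulas C and L3 its signals lay far below the array medians, of which the lowest was 108.8. With formula L its mean signal of 57.9 was also below that lowest median. The log2 difference was 0.86 (SE 0.33, limma p 0.0176) for L over C and −1.27 (SE 0.33, limma p 0.0013, adjusted p 0.891) for L3 over L, the same order of formulas as TRPV2 222855_s_at. MCOLN2, an endolysosomal mucolipin, had 195.8 to 327.5 with formula C, 123.4 to 331.7 with formula L and 55.8 to 143.9 with formula L3, with a log2 difference of −1.75 (SE 0.46, limma p 0.00151, adjusted p 0.999) for L3 over C. PKD2L1, a polycystin channel, had 194.4 to 419.8 with formula C, 63.9 to 259.4 with formula L and 206.5 to 621.2 with formula L3, with a log2 difference of −1.15 (SE 0.49, limma p 0.0316) for L over C and 1.28 (SE 0.49, limma p 0.0183) for L3 over L. The 16 had medians of −0.05 for L over C and −0.06 for L3 over C.

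Among 15 measured regulators of phosphoinositides and calmodulin, PLCD1, a phospholipase that splits phosphatidylinositol bisphosphate, had the smallest p. Its signal was 424 to 676.2 with formula C, 658 to 820.6 with formula L and 196.6 to 330.5 with formula L3, so that the L3 arrays lay below every C and every L array, as did those of 1.07% and 1.14% of all probe sets. On the log2 scale the difference was −1.09 (SE 0.29, limma p 0.00175, adjusted p 0.999) for L3 over C and −1.48 (SE 0.29, limma p 0.000112, adjusted p 0.891) for L3 over L. PIP5K1C, a kinase that makes this lipid at synapses, had a log2 difference for L3 over L of −0.86 (SE 0.32, limma p 0.017) and PLCG2, a phospholipase of immune cells, of 0.92 (SE 0.41, limma p 0.0367). In the list of ADP-ribose enzymes, BST1, an ADP-ribosyl cyclase, had one of −1.30 (SE 0.50, limma p 0.0184), and in the list of enzymes of lipid ligands CYP2C8, which forms epoxides of ARA, one of 1.18 (SE 0.48, limma p 0.0253). The 7 measured genes of the TRPM1 regulator and ON bipolar list and the 5 of store-operated calcium entry had 0 with an unadjusted limma p under 0.05 in all 3 comparisons, with median log2 differences for L3 over C of −0.20 and −0.09.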

How the data were processed

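Precentral gyrus RNA of 12 baboon neonates was measured on 1 Affymetrix array each, 4 per formula, with groups taken from sample titles. The authors deposited MAS5 signals from GCOS, an intensity on a linear scale, whereas the methods describe RMA values, which were not used here. After 62 control probe sets were left out, 54613 remained, and 16 was added before log2 values were quantile normalized. Limma 3.58.1 in R 4.3.3 fitted 3 group means (9 residual degrees of freedom, variance trend), with Benjamini-Hochberg adjustment over all probe sets. Symbols came from the platform annotation. Labels name 1 animal per array. Precision rests on 4 arrays per group. The members and lists were chosen with earlier results of these data known. Named were the study's TRPM1 and TRPV2 probe sets, the brightest per gene, any at an unadjusted p under 0.05 or with arrays apart, and up to 3 such genes per related list; some further TRPM3, TRPM7, TRPV6 and TRPM1 probe sets were added after their values were seen. The fit was tested on simulated data. Alternatives covered scaling, pseudocount, brightness, variance trend, arrays, sex, age, spike-in signal, RNA quality and the replicate number.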

Additional observations from a re-analysis of the deposited data

Results flagged for a closer look

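In 3 of 72 groups of 4 arrays, over the 24 probe sets and 3 formulas, 1 array stood apart from the other 3 by a Dixon ratio (gap over range of the log2 values) above its 95% critical value for 4 samples, where chance gives about 1 in 20. TRPM1 237069_s_at was higher in C replicate 4, at a signal of 67.3 with the other C arrays at 12.7 to 27.8 (ratio 0.872). TRPV2 222855_s_at was higher in the same array, at 272.4 with the others at 50.9 to 60 (ratio 0.865). TRPM1 237070_at was lower in C replicate 2, at 7.5 with the others at 25.7 to 35.3 (ratio 0.936).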

How the results depend on the processing

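The count of the 18 tested probe sets at an adjusted p under 0.05 from limma was 0 in every comparison under every alternative. At an unadjusted p under 0.05 it was 0 to 2. Exact permutation tests were rerun with no further normalization, median centring, a pseudocount of 1 and only brighter probe sets, and gave a p under 0.05 to 1 in L/C with no further normalization (TRPM7 223324_s_at, against 1.57% of all probe sets) and to 0 in the other comparisons of these settings. The sample titles give no pairing by replicate number. Over all probe sets, deviations from the formula mean correlated above 0.1 in 6 of 12 same-numbered pairs. These were the pairs of replicates 1 and 4, at 0.14 to 0.33. In addition, 6 of 12 arrays correlated best with an array of their own number, and what such arrays share was not tested. With the replicate block limma gave 0, 1 and 0 probe sets at an unadjusted p under 0.05 in L/C, L3/C and L3/L, as without it. Medians of the related genes ran from −0.11 to 0.04 in L/C, −0.24 to −0.02 in L3/C and −0.26 to 0.04 in L3/L. Only probe sets above the median left 8 of the 24.

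Signs of log2 differences that were not significant turned in some settings, and the cause was not tested. With sex as a covariate they were 0.13 for TRPM3 216452_at in L3/C, 0.066 for TRPM4 in L/C and −0.17, −0.36 and −0.19 for TRPM7 231689_at in L/C, L3/C and L3/L. In females only they were 0.41 for TRPM3 216452_at in L3/C, 0.42 and 0.0064 for TRPM4 in L/C and L3/C, −0.21, −0.38 and −0.17 for TRPM7 231689_at in L/C, L3/C and L3/L, and 0.22 for TRPV6 1559405_a_at in L/C. With the spike-in covariate they were 0.21 for TRPM3 216452_at in L3/C and −0.39 and −0.96 for TRPM7 231689_at in L3/C and L3/L. With age they were 0.10 for TRPM4 and 0.053 for TRPV6 1559405_a_at in L/C. For TRPM7 231689_at they were −0.40 in L3/L with the ACTB ratio as a covariate and, as an alternative chosen after seeing the data, −0.52 in L/C over the 9 arrays with an ACTB log2 ratio of 3 or less.

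With each array left out in turn, the signs that turned among tested probe sets had ranges of −0.59 to 0.0083 for TRPM2 in L3/C (without L3 replicate 3), −0.49 to 0.36 for TRPM3 216452_at in L3/C (without C replicate 4 or L3 replicate 2), −0.19 to 0.63 for TRPM3 239684_at in L/C (without C replicate 2), −0.28 to 0.27 for TRPM4 in L/C (without C replicate 4 or L replicate 3) and −0.42 to 0.17 for TRPV6 1559405_a_at in L/C (without C replicate 1 or L replicate 4). For TRPM7 231689_at they were −0.44 to 0.76 in L/C, −0.043 to 1.00 in L3/C and −0.29 to 0.84 in L3/L. Of the probe sets described with no test, TRPM1 214410_at ran from −0.035 to 1.05 in L3/C and −0.89 to 0.11 in L3/L (without L3 replicate 1), and TRPV2 222855_s_at from −0.63 to 0.11 in L3/C (without C replicate 4).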
